A study of Mus musculus with 4 samples.

Results

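The genes described here make up the transforming growth factor beta (TGF-beta) and bone morphogenetic protein (BMP) system of mammary epithelial cells: ligands, latent TGF-beta binding proteins, extracellular antagonists, receptors, SMAD proteins and a small set of target genes. They were chosen by name, as every probe that is not a control and whose gene name begins with Smad, Bmp, Tgfb, Tgfbr, Bmpr, Acvr, Inhb, Gdf, Ltbp or Grem in the numbered or lettered form of these families, or is Id1, Id2, Id3, Id4, Nog, Chrd, Fst, Bambi or Tgfbi. This gave 102 probes for 66 of the 28145 gene names on the array. No measured value entered this rule, but it was set with earlier results of these data known. RNA came from 2 stable clones of EPH-4, a non-malignant mouse mammary epithelial line. EV-50 carried the empty H1-2 vector and was labelled as having normal glucocorticoid receptor (GR) status, and shGR-19 carried a short hairpin RNA against GR and was labelled as GR-depleted. Both had been transfected with a puromycin marker together with their vector, both grew in serum-free DMEM/F-12 with 2 µg/ml puromycin, and neither was given a glucocorticoid. Each line is 1 clone, so a difference between them cannot be told apart from a difference between clones. For each line 300 ng RNA was labelled with Cy3 in duplicate, which gave 2 Agilent expression arrays per line. The sources do not say whether duplicates were separate cultures, so p-values here measure only the spread between the duplicate values of a line, which may be technical.

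Ligands of this family are secreted as dimers and bind a complex of type I and type II serine/threonine kinase receptors. TGF-beta and activin receptors phosphorylate Smad2 and Smad3, BMP receptors phosphorylate Smad1, Smad5 and Smad9, and either group joins Smad4 and enters the nucleus, while Smad6 and Smad7 inhibit the pathway. TGF-beta is stored in the matrix in a latent complex with an LTBP protein, and in mammary epithelium it is known as an inhibitor of growth and as an inducer of epithelial to mesenchymal transition. The Id genes, which encode inhibitors of helix-loop-helix transcription factors, are among the best known targets of BMP signalling.

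Deposited values came in 2 forms. The scanner files hold the background-subtracted intensity of each spot, given here as a scanner signal, the log2 of its ratio to the 75th percentile of the same array. The value table holds log2 values made in GeneSpring, with each probe set to a median of 0 across the 4 columns, so that a value there is a distance from that median and not a level. Values are given in the order replicate 1, replicate 2 for each line. A probe was kept when it was well above background on both EV-50 arrays or on both shGR-19 arrays, and a gene is described by its brightest kept probe. A kept gene was called at a limma adjusted p below 0.01, adjusted over all 24441 kept probes. Each array had 43379 spots that were not controls, of which 23290 to 27358 were well above background and 0 were saturated.

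The scanner arrays and the value table separated the lines differently. The targeted gene Nr3c1, which encodes GR, had scanner signals of 1.81 and 1.92 in EV-50, by the labels, and of 1.46 and -0.03 in shGR-19. Its value table columns were 0.98 and 0.95 for EV-50 and -0.95 and -0.98 for shGR-19, a difference of -1.94 on the log2 scale (SE 0.0479, limma adjusted p = 0.00216). The 4 columns of the table therefore separated the lines, while the scanner array labelled shGR-19 replicate 1 lay nearer to the EV-50 arrays than to its own duplicate. The members showed the same. Among the 39 member genes well above background on all 4 arrays, the arrays labelled replicate 1 of the 2 lines differed by at most 0.43 on the log2 scale, and 0 genes differed by more than 0.5. Between the arrays labelled replicate 2 the largest difference was 1.89, and 20 of the 39 differed by more than 0.5. The plot of scanner differences against the value table shows this for each gene. The cause was not tested, and nor was whether each scanner file belongs to the sample under which it was deposited, so the scanner values of a line hold only as far as that label does. Both sources are given for the members described in full.

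**Figure D1:**
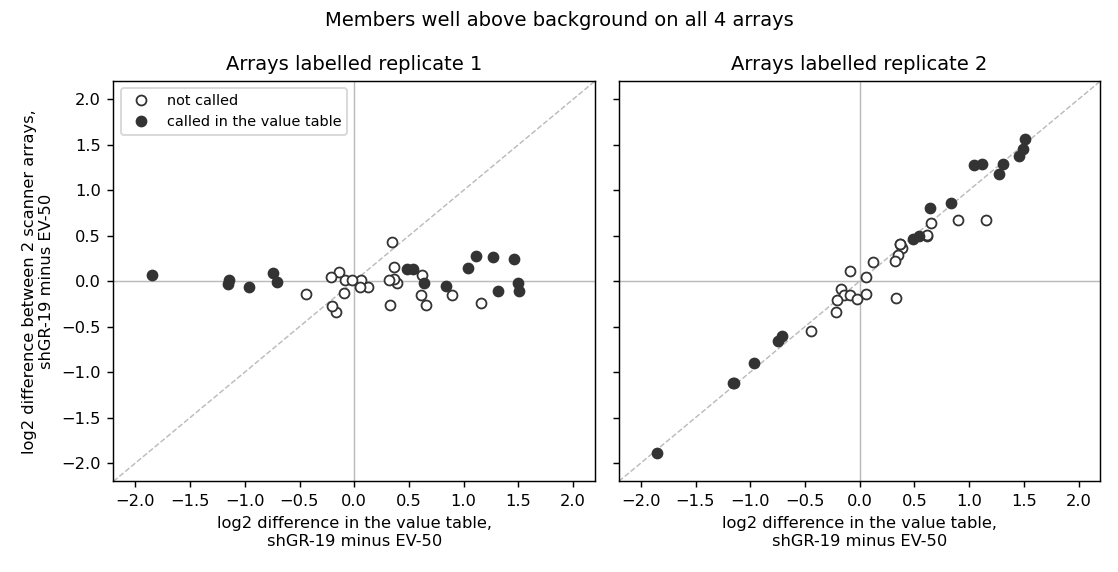
Each point is 1 of the 39 member genes well above background on all 4 arrays. The horizontal axis is the log2 difference between lines (shGR-19 minus EV-50) in the value table, the vertical axis the log2 difference between the scanner arrays labelled replicate 1 (left) or replicate 2 (right), the dashed line marks equal differences, and filled points were called in the value table; the points lie along the zero line on the left, within 0.43 of it, and along the dashed line on the right.

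Of the 66 member genes, 46 were kept, 39 of them well above background on all 4 arrays. Well above background on no array were 13 genes, the ligands Bmp2, Bmp5, Bmp8a, Bmp8b, Bmp10, Bmp15, Gdf2, Gdf3 and Gdf10, the receptors Acvr1c and Bmpr1b, the pseudoreceptor Bambi and the antagonist Grem1. The other 7, Acvrl1, Bmp6, Gdf6, Gdf7, Inhbc and Smad7 among them, passed on 1 or 2 arrays but not on both arrays of a line. For these 20 genes no difference is given.

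Of the 46 kept genes, 17 were called in the value table (37.0%), 11 higher and 6 lower in shGR-19, where 12.6% of all 16758 kept genes were called. By direction, 23.9% of the members were called higher against 6.11% of all genes, and 13% were called lower against 6.51%. With a difference of more than 2-fold asked for as well, 7 were higher and 3 lower, 21.7% of the members against 4.86% of all genes (2.16% higher and 2.7% lower). At an adjusted p below 0.05 the table had 18 members higher and 9 lower, 58.7% of them against 37.2% of all genes (19.4% higher and 17.8% lower). The higher group was led by the ligands Gdf5 and Tgfb2 and the target Id3, the lower group by the target Id2 and the ligand Tgfb1. The median difference of the 46 was 0.32 on the log2 scale, against 0.02 for all kept genes, and the median size without sign was 0.58 against 0.24. In the scanner files limma called 0 of the 46 members and 0 of all genes. On simulated data with the spread of those files it recovered 0 of 100 probes changed by 4 on the log2 scale. The 0 calls therefore do not show a lack of difference. In the scanner fit 3 members (Bmp3, Smad9 and Tgfbi) and 152 of all genes had an unadjusted p below 0.05. These 3 had passed the filter through shGR-19, being well above background on 0, 0 and 1 of the EV-50 arrays, and with only the 39 members detected on all 4 arrays the count was 0. A plain test that assumes equal variances, adjusted in the same way, called 0 members there too. In the value table the plain test called 1 member higher and 0 lower. The 17 calls also rest on all 4 columns of the table: with any 1 column left out, none of them stood. That leaves 1 array in a line, so only signs are read there, and none of the 17 turned. The calls rest on the filter too: with all rows of the table kept, limma called 0 members. There 30 had an unadjusted p below 0.05, beside 32 in the main fit. With only the 39 members detected on all 4 arrays, limma called 16 higher and 7 lower. The share over all genes in these fits was not computed. Their counts therefore show only how the calls depend on the settings, and nothing particular to the members.

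**Figure D2:**
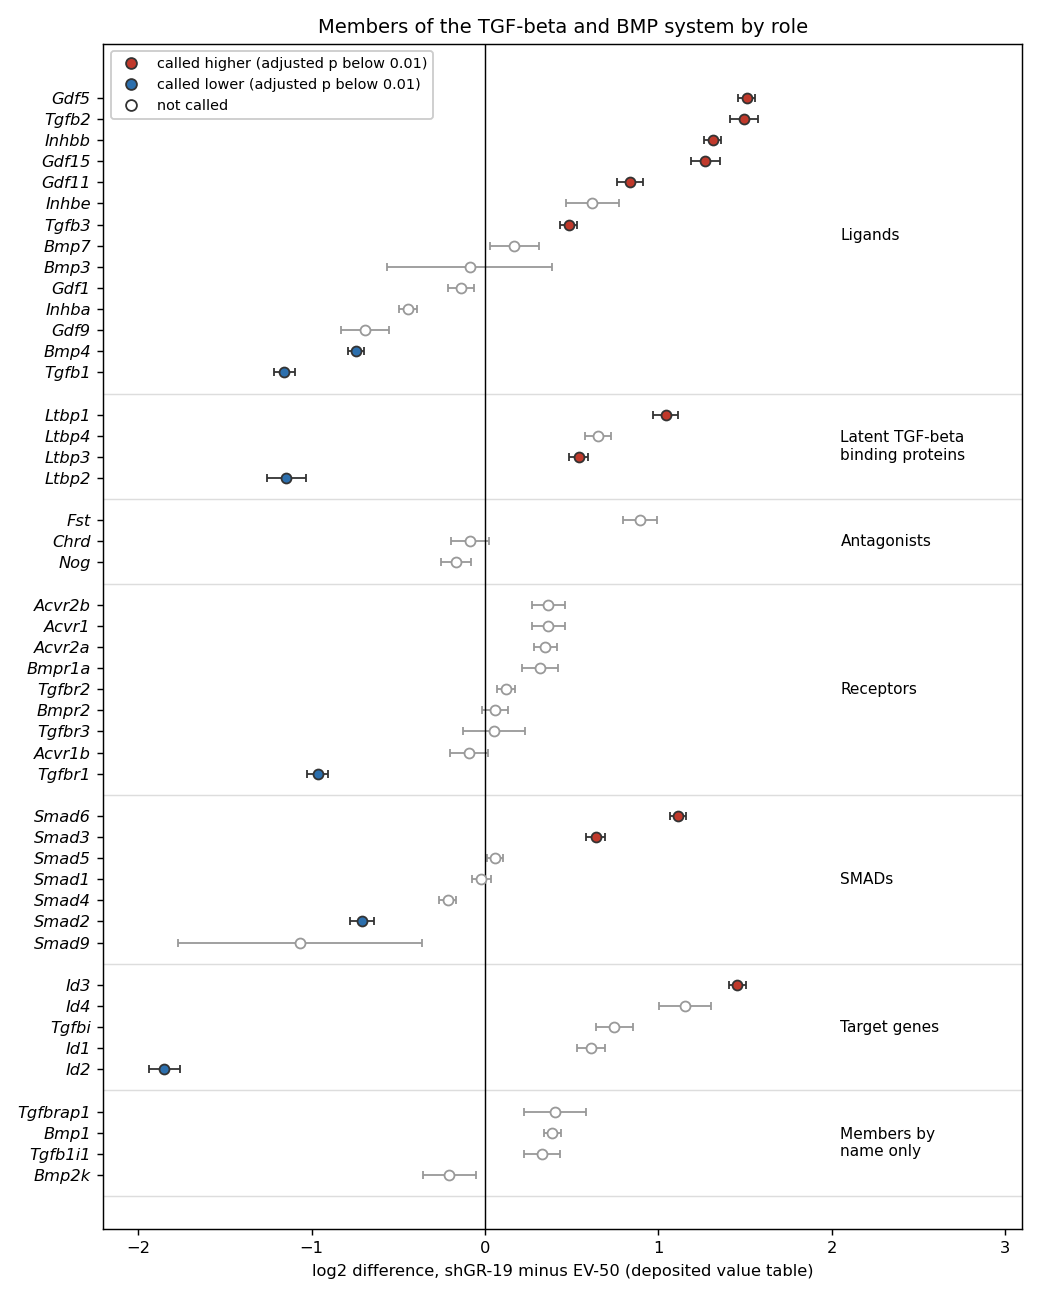
Log2 difference between lines (shGR-19 minus EV-50) in the value table for the 46 kept member genes, by role, with 1 SE on each side, from 2 arrays per line; red and blue points passed an adjusted p below 0.01 and open points did not. The receptors lie between -0.96 and 0.37, the ligands between -1.16 and 1.51 and the target genes between -1.85 and 1.46.

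Luminal epithelial markers were present, as the label of mammary epithelial cells states. All 6 kept ones (Krt8, Krt18, Epcam, Cdh1, Cldn3 and Cldn4) were measured on every array, and 0 were called. Krt19, also on the array, was well above background on 1 array of each line and so not kept. Its table columns were 1.42 and 1.21 in EV-50 and -1.21 and -1.68 in shGR-19. The summed signal, in multiples of the 75th percentile and over the 7 on the array, was 691 and 585 in EV-50 and 721 and 598 in shGR-19. Of the fibroblast markers, 4 of the 4 kept (Vim, Col1a2, Pdgfra and Pdgfrb) were called higher in shGR-19 in the value table. They rose by 1.16 to 3.27 on the log2 scale, where 6.11% of all kept genes were called higher. Pdgfra was not well above background on the array labelled EV-50 replicate 1. Col1a1 and Thy1, also on the array, were not kept. Table columns of Col1a1 were negative in EV-50 and positive in shGR-19. Those of Thy1 overlapped, at -0.05 and 0.86 in EV-50 and -0.28 and 0.05 in shGR-19. The summed signal over 6 on the array was 2.07 and 6.55 in EV-50 against 1.96 and 49.8 in shGR-19. Of 5 kept basal markers, Krt14 was called lower (-1.13, adjusted p = 0.00332). None of the kept immune (4), endothelial (2) or adipocyte (2) markers was called, and the defining endothelial genes Pecam1 and Cdh5 were not well above background. The part of these markers in the differences of the members was not tested, and in bulk RNA a change in the share of cells of one kind cannot be told apart from a change in RNA per cell.

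Among the 3 TGF-beta ligands, 1 was lower and 2 were higher in shGR-19 in the value table. Tgfb1, the main form in most adult tissues, had scanner signals of -1.76 and -0.42 in EV-50 and -1.79 and -1.54 in shGR-19. Its table columns of 0.65 and 0.55 in EV-50 and -0.55 and -0.56 in shGR-19 gave a log2 difference of -1.16 (SE 0.0595, adjusted p = 0.00394). Tgfb1 was thus high on 1 of the EV-50 scanner arrays only, while the table columns of the lines did not overlap. Its probe lay at mm9 chromosome 7, 26489877 to 26489936, on the plus strand. Tgfb2, a form expressed in developing epithelia and mesenchyme, moved the other way. Scanner signals were -3.01 and -2.68 in EV-50 and -3.03 and -1.22 in shGR-19, and table columns were -0.69 and -0.86 in EV-50 and 0.69 and 0.74 in shGR-19. The Tgfb2 difference of 1.495 (SE 0.0797, adjusted p = 0.00406) is a 2.82-fold increase. Tgfb3, the form best known from palate closure and mammary involution, rose by less: its scanner signals were 1.72 and 3.24 in EV-50 and 1.86 and 3.70 in shGR-19. In its table columns, -0.25 and -0.23 in EV-50 stood against 0.26 and 0.23 in shGR-19, a log2 difference of 0.48 (SE 0.0476, adjusted p = 0.00911).

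Of the activin and BMP type ligands, Gdf5, Inhbb, Gdf15 and Gdf11 were called higher and Bmp4 lower. Gdf5, a ligand of joint and cartilage formation, gave signals of -0.37 and -1.59 on the EV-50 arrays and -0.49 and -0.03 on the shGR-19 arrays. The table columns of Gdf5 were -0.74 and -0.78 in EV-50 and 0.74 and 0.76 in shGR-19, and the difference of 1.51 (SE 0.0497, adjusted p = 0.00257) was the largest increase among the members, 2.85-fold. Inhbb, the beta B subunit of activin and inhibin, had signals of 2.90 and 3.42 in EV-50 and 2.79 and 4.71 in shGR-19, highest on 1 shGR-19 array. Table columns for Inhbb were -0.64 and -0.68 against 0.66 and 0.64, a difference of 1.31 (SE 0.0472, adjusted p = 0.00279), and a second probe gave 1.28 and was called too. The beta A subunit Inhba did not pass, at -0.45 (SE 0.0517, adjusted p = 0.0121). Gdf15, a stress-induced cytokine that signals through a receptor outside this family, had signals of -2.64 and -4.27 in EV-50 and -2.37 and -3.09 in shGR-19. Its columns of -0.69 and -0.57 in EV-50 and 0.71 and 0.57 in shGR-19 gave 1.27 (SE 0.0843, adjusted p = 0.00524).

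Gdf11, a relative of myostatin, was at -2.39 and -2.56 on the EV-50 arrays and at -2.44 and -1.71 on the shGR-19 arrays, so that only the array labelled shGR-19 replicate 2 stood apart. For Gdf11 the columns were -0.36 and -0.51 in EV-50 and 0.36 and 0.43 in shGR-19, a difference of 0.84 (SE 0.0759, adjusted p = 0.00816). Bmp4, a BMP ligand with roles in early mammary gland formation, had scanner signals of 0.64 and -0.75 in EV-50 and 0.73 and -1.41 in shGR-19, with the larger gap between the 2 arrays of each line rather than between lines. The Bmp4 columns of the table did separate the lines, at 0.38 and 0.36 against -0.39 and -0.36, and Bmp4 fell by 0.74 on the log2 scale (SE 0.0467, adjusted p = 0.00487). The remaining ligands Bmp3, Bmp7, Gdf1, Gdf9 and Inhbe were not called, with differences from -0.69 for Gdf9 to 0.62 for Inhbe. Bmp3, which counteracts other BMPs, was well above background on both shGR-19 arrays and on neither EV-50 array, with scanner signals of -6.42 and -5.98 against -5.24 and -5.43, and its mean did not exceed the lower limit of detection of the EV-50 arrays, so no fold is given.

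Of the 4 LTBP proteins, most of which hold latent TGF-beta in the matrix, Ltbp1 and Ltbp3 were called higher and Ltbp2 lower. Over all kept genes 12.6% were called in either direction. Ltbp1 had scanner signals of -1.41 and -1.02 in EV-50 and -1.26 and 0.26 in shGR-19. Its table columns were -0.47 and -0.56 in EV-50 and 0.59 and 0.47 in shGR-19, and both kept probes were called, at 1.04 (SE 0.0717, adjusted p = 0.00552) and 0.98. Ltbp2, which unlike its relatives does not bind latent TGF-beta, gave 1.16 and 3.64 on the EV-50 arrays and 1.17 and 2.52 on the shGR-19 arrays. The arrays labelled replicate 1 were alike for Ltbp2, and those labelled replicate 2 differed by -1.12. In the table its columns of 0.48 and 0.65 against -0.69 and -0.48 gave a fall of 1.14 on the log2 scale (SE 0.111, adjusted p = 0.00891). Ltbp3 signals were 4.91 and 5.64 in EV-50 and 5.04 and 6.14 in shGR-19. Its columns were -0.24 and -0.29 in EV-50 and 0.24 and 0.31 in shGR-19, for a difference of 0.54 (SE 0.0556, adjusted p = 0.00981), while the dimmer second probe had the same difference and was not called (adjusted p = 0.0262). Ltbp4 lay just outside the threshold at 0.65 (SE 0.0776, adjusted p = 0.0126).

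None of the 3 kept antagonists was called. Fst encodes follistatin, which binds activins, and its table difference of 0.89 (SE 0.0991, adjusted p = 0.0112) was the nearest to the threshold among the members not called on their brightest probe. The scanner signals of Fst were 0.62 and -1.33 in EV-50 and 0.47 and -0.65 in shGR-19, so the lines overlapped. Chrd and Nog, which bind BMPs, had table differences of -0.09 and -0.17.

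Of 9 kept receptors, 1 was called in the value table, a share near the 12.6% of all kept genes. Tgfbr1, the type I TGF-beta receptor that phosphorylates Smad2 and Smad3, had scanner signals of 1.22 and 1.58 in EV-50 and 1.16 and 0.67 in shGR-19, and it was one of the members whose 2 lines did not overlap on the scanner arrays, although the replicate 1 arrays differed by only -0.07. Table columns of Tgfbr1 were 0.50 and 0.44 in EV-50 and -0.44 and -0.54 in shGR-19, a difference of -0.96 (SE 0.061, adjusted p = 0.00489). A dimmer second probe gave -0.99 and missed the threshold (adjusted p = 0.0109). The type II receptor Tgfbr2, with which it pairs, had signals of 4.87 and 3.93 in EV-50 and 4.80 and 4.13 in shGR-19. Its columns of -0.04 and -0.09 against 0.07 and 0.04 gave 0.12 (SE 0.0507, adjusted p = 0.15). Tgfbr3, the co-receptor betaglycan, was well above background on both shGR-19 arrays (-4.95 and -5.92) and on neither EV-50 array (-5.42 and -5.80), and its table difference was 0.05 (SE 0.181, adjusted p = 0.847).

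The BMP and activin receptors were not called either. Bmpr1a, a BMP type I receptor, had signals of -0.38 and -0.18 in EV-50 and -0.37 and 0.04 in shGR-19, with table columns of -0.07 and -0.29 against 0.20 and 0.07 and a difference of 0.32 (SE 0.104, adjusted p = 0.0934). For Bmpr2, the BMP type II receptor, scanner signals of 1.36 and 1.61 in EV-50 and 1.37 and 1.47 in shGR-19 were close on all arrays. Its table columns were 0.03 and -0.11 in EV-50 and 0.06 and -0.03 in shGR-19, and the 3 kept probes gave differences from -0.02 to 0.08 with different signs. Acvr1, a type I receptor of BMPs and activins, read -0.08 and 0.36 in EV-50 and -0.05 and 0.77 in shGR-19. In the table Acvr1 stood at -0.34 and -0.12 in EV-50 and at 0.12 and 0.14 in shGR-19, a difference of 0.37 (SE 0.095, adjusted p = 0.059). Acvr1b, Acvr2a and Acvr2b differed by -0.09, 0.35 and 0.37.

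Among the 7 kept SMADs, Smad6 and Smad3 were called higher and Smad2 lower, where 12.6% of all kept genes were called either way. Smad2 and Smad3, the 2 SMADs that TGF-beta and activin receptors phosphorylate, thus went in opposite directions. Scanner signals of Smad2 were 0.68 and 0.79 in EV-50 and 0.66 and 0.19 in shGR-19, with no overlap between lines but a difference of only -0.01 between the arrays labelled replicate 1. Smad2 columns in the table were 0.39 and 0.31 in EV-50 and -0.42 and -0.31 in shGR-19, a fall of 0.71 on the log2 scale (SE 0.0676, adjusted p = 0.00874). Smad3 gave 1.85 and 2.24 on the EV-50 arrays and 1.83 and 3.04 on the shGR-19 arrays, highest on the array labelled shGR-19 replicate 2. Its columns were -0.37 and -0.30 against 0.30 and 0.31, a rise of 0.64 (SE 0.0537, adjusted p = 0.00734), and a dimmer probe at 0.51 was not called (adjusted p = 0.0141). Smad6, the inhibitory SMAD of the BMP branch and itself induced by BMPs, had signals of -1.49 and -0.76 in EV-50 and -1.22 and 0.53 in shGR-19. The Smad6 columns of -0.55 and -0.56 against 0.55 and 0.56 were the tightest pairs among the called members, and the difference was 1.11 (SE 0.0453, adjusted p = 0.00317), 2.16-fold.

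The SMADs of the BMP branch and the common SMAD were not called. Smad1 had scanner signals of 2.33 and 2.03 in EV-50 and 2.34 and 1.83 in shGR-19, table columns of 0.01, -0.01, 0.02 and -0.06, and a difference of -0.02 (SE 0.0549, adjusted p = 0.798). Smad5 had signals of 3.84 and 3.90 in EV-50 and 3.78 and 3.95 in shGR-19, columns of -0.02, -0.04, 0.02 and 0.03, and a difference of 0.06 (SE 0.0463, adjusted p = 0.414). Other kept probes of Smad1 and Smad5 turned the sign, so neither has a direction. Smad4, the partner of both branches, had signals of 3.25 and 3.59 in EV-50 and 3.29 and 3.25 in shGR-19. With columns of 0.12 and 0.09 against -0.09 and -0.13, its difference of -0.21 (SE 0.0492) had an adjusted p of 0.0457. Smad9, the remaining BMP SMAD, was well above background on both shGR-19 arrays and neither EV-50 array, with scanner signals of -5.12 and -5.41 against -6.05 and -6.13. Smad9 thus passed the filter only through shGR-19, so no direction is drawn from its scanner signals, and its table difference was negative and not called, from columns of 1.63 and -0.08 in EV-50 and 0.08 and -0.66 in shGR-19 (-1.07, SE 0.702, adjusted p = 0.311). Smad7, the other inhibitory SMAD, was not kept: it was well above background on 2 arrays, with signals of -6.28 and -4.51 in EV-50 and -5.86 and -4.74 in shGR-19.

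The Id genes divided. Id2 had the largest difference of any member, and it was lower in shGR-19. The scanner signals of its brightest probe (mm9 chromosome 12, 25778904 to 25778963, minus strand) were 0.46 and 1.04 in EV-50 and 0.52 and -0.85 in shGR-19, so 1 of the shGR-19 arrays lay between the EV-50 arrays and the other far below them. Table columns of 1.03 and 0.86 in EV-50 and -0.86 and -0.96 in shGR-19 gave a fall of 1.85 on the log2 scale (SE 0.0872, adjusted p = 0.0036), 3.60-fold. A second Id2 probe gave -1.81 (adjusted p = 0.00317), and the dimmest one -1.13 (adjusted p = 0.043, not called). Id3 moved the other way, with scanner signals of 2.76 and 2.63 in EV-50 and 3.0 and 4.0 in shGR-19. Id3 was higher on both shGR-19 arrays than on either EV-50 array. The columns of Id3 in the table, -0.71 and -0.74 against 0.76 and 0.71, gave a rise of 1.46 (SE 0.0498, adjusted p = 0.00265), 2.74-fold.

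Id1, Id4 and Tgfbi did not pass 0.01, although each was higher in shGR-19 in the table. Id1 signals were -0.85 and -1.33 in EV-50 and -1.01 and -0.82 in shGR-19, and its columns of -0.24 and -0.38 against 0.36 and 0.24 gave 0.61 (SE 0.0829, adjusted p = 0.016), with 0.65 for a second probe (adjusted p = 0.0101). Id4 had signals of -2.32 and -4.70 in EV-50 and -2.56 and -4.02 in shGR-19, with columns of -0.81 and -0.45 against 0.45 and 0.60 and a difference of 1.15 (SE 0.152, adjusted p = 0.0152). For Id4 the 2 arrays of each line lay farther apart than the lines. Tgfbi, a matrix protein named for its induction by TGF-beta, was well above background on 1 EV-50 array and both shGR-19 arrays, with signals of -4.99 and -5.35 in EV-50 and -4.39 and -4.62 in shGR-19. Tgfbi thus passed the filter only through shGR-19, so no direction is drawn from its scanner signals. Its table columns of -0.28 and -0.46 against 0.47 and 0.28 gave 0.75 (SE 0.106, adjusted p = 0.0174).

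**Figure D3:**
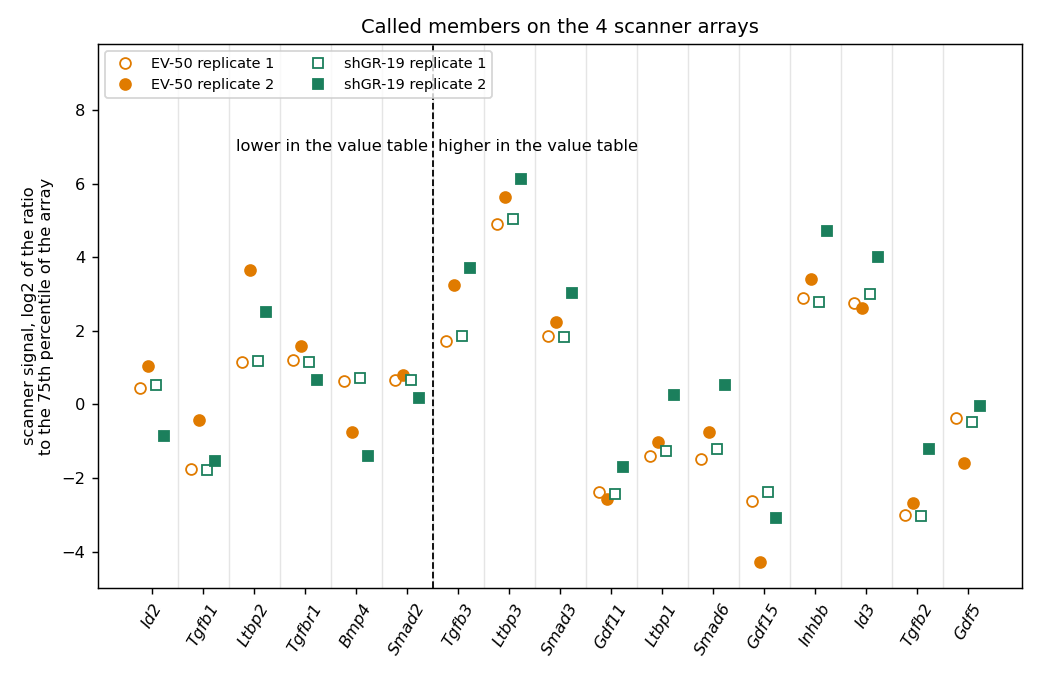
Scanner signal (log2 of the ratio to the 75th percentile of the array) of the 17 members called in the value table, ordered from the lowest to the highest table difference, on each of the 4 arrays; open symbols are the arrays labelled replicate 1 and filled symbols those labelled replicate 2. In each gene the open circle and open square differ by at most 0.27 while the filled pair differs by at least 0.46, in the direction of the value table. The table belongs to the same 4 samples and was used to choose these genes. Levels of different genes come from different probes and cannot be compared.

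Promoter sequences of 4 called members are printed because they hold the target Id genes that went opposite ways, the SMAD that is itself a BMP target, and the most strongly raised TGF-beta ligand. They are RefSeq promoters on GRCm38.p6, a different build from the mm9 of the probes, and run 5′ to 3′ from 250 bases before to 10 bases after the start. Capitals mark letters searched on both strands: CAGAC or GTCTG (the SMAD box), GTCTAGAC (a palindromic SMAD element), GGCGCC (a GC-rich element of BMP SMADs) and AGAACA or TGTTCT (a half-site of the GR element). No 2 of them overlap in these windows.
Id2 (chr12:25096083-25096342, minus strand): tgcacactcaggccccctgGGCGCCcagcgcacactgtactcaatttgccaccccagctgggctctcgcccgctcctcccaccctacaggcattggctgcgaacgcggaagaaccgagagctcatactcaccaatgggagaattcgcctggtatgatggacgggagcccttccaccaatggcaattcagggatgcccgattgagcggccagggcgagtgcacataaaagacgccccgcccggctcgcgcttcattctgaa
Id3 (chr4:136143572-136143831, plus strand): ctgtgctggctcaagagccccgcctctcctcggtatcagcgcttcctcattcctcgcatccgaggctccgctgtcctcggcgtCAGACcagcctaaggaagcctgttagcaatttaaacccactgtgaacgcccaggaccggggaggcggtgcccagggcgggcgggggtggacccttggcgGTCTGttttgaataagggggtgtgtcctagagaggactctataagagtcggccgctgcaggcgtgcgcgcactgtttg
Smad6 (chr9:64022050-64022309, minus strand): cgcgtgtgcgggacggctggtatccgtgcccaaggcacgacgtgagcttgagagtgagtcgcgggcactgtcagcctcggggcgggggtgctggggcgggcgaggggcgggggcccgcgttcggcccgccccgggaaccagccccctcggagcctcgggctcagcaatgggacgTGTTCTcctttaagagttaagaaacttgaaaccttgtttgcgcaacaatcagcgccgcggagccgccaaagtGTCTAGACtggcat
Tgfb2 (chr1:186705980-186706239, minus strand): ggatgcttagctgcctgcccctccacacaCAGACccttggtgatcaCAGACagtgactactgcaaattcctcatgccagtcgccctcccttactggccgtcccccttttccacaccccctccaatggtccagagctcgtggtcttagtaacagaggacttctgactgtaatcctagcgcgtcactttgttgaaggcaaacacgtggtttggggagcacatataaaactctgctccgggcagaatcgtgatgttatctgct

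The window of Id2, the gene that fell most, held 1 match, GGCGCC at position -231 from the start. Id3 held CAGAC at -167 and GTCTG at -68, and Tgfb2 held CAGAC at -221 and -204. Smad6 held GTCTAGAC at -4 and TGTTCT at -76. The SMAD box is common, found in 44.0% of 32851 promoter windows of the same length and in 46.6% of the 58 windows of the 46 member genes with an entry. GTCTAGAC was in 0.177% of all windows and in 1 of the 58, that of Smad6. GGCGCC was in 9.96% of all windows, in 15 of the 58 and in 2 of the 17 windows of called genes. Of those 17, the SMAD box was in 9, and GTCTAGAC and the GR half-site were in 1 each. The GR half-site was in 16.7% of all windows and in 2 of the 58, Smad6 and Bmpr2. A match is only a match of letters, and these shares describe windows, some of which belong to the same gene.

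Taken by name only were Bmp1 (a protease that cleaves procollagen), Bmp2k (a kinase), Tgfb1i1 (a focal adhesion protein) and Tgfbrap1 (a receptor-associated protein), and 0 of these 4 were called on their brightest probe. Bmp1 differed by 0.39 (SE 0.0492, adjusted p = 0.0141), and its dimmer probe by 0.66 was called (adjusted p = 0.00838). Over all members, 17 genes had several kept probes, which shared a direction in 11 and the call in 12. The kept genes outside the rule for full values, Fst, Bmp3 and Inhba among them, were 17, with differences from -0.69 to 0.89, 9 higher and 8 lower.

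All 17 called members had the direction of the value table between the scanner arrays labelled replicate 2, and 9 had it between those labelled replicate 1. Their differences between the arrays labelled replicate 1 were at most 0.27, and between those labelled replicate 2 at least 0.46. For 3 of the 17 (Tgfbr1, Smad2 and Id3) the 2 lines did not overlap on the scanner arrays. An exact permutation of 2 against 2 arrays cannot go below 0.333, so nothing is drawn from a lack of overlap. Neither the shared directions nor the overlap was counted over all called genes. The value table belongs to the same 4 samples and was used to choose the 17, so nothing is drawn from the shared directions. Over the 46 kept members, the median size of the scanner difference was 0.122 between the replicate 1 arrays and 0.502 between the replicate 2 arrays, and over all kept genes 0.0788 and 0.235.

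Genes of the same pathway that the name rule leaves out were taken from a list of 68, of which 56 were kept. Of these, 11 were called higher and 5 called lower in shGR-19 by the value table, where 6.11% of all kept genes were called higher and 6.51% lower, and in the scanner files 0 were called. Of 23 kept extracellular genes, 4 were called higher and 3 called lower, where 12.6% of all kept genes were called in either direction. Nbl1, a BMP antagonist, rose by 1.98 on the log2 scale (SE 0.0484, adjusted p = 0.00215), with scanner signals of 3.70 and 2.43 in EV-50 and 3.64 and 4.35 in shGR-19. Itgb6, a subunit of an integrin that activates latent TGF-beta, rose by 1.39 (SE 0.0572, adjusted p = 0.00321), with signals of -1.90 and -1.02 against -1.84 and 0.25. Fbn1, the fibrillin to which LTBP proteins attach, fell by 2.15 (SE 0.0764, adjusted p = 0.00279), with signals of -4.81 and -3.17 against -4.81 and -5.21. On the scanner arrays labelled replicate 1 these 3 genes differed little between the lines. Crim1 and Furin were also called higher, by 0.87 and 0.52, and Bmper and Thbs1 lower, at -0.81 and -0.58.

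Inside the cell, 19 genes were kept, of which 3 were called higher and 1 lower, again beside 12.6% of all kept genes. Smurf2, a ubiquitin ligase of SMADs and receptors, rose by 0.55, the corepressor Tgif2 by 0.65 and the coactivator Crebbp by 0.62, while the ubiquitin ligase Wwp1 fell by 0.93. Of 14 kept responsive genes, 4 were called higher and 1 lower, beside the same 12.6%, with a median difference of 0.24. Ctgf, a classical TGF-beta target, fell by 1.37 (SE 0.0598, adjusted p = 0.00336), with scanner signals of 3.56 and 5.43 in EV-50 and 3.65 and 4.03 in shGR-19. The BMP-linked genes Atoh8, Msx1 and Hey1 rose by 3.29 (SE 0.155), 1.09 (SE 0.0519) and 1.04 (SE 0.0615). Scanner signals of Atoh8 were -3.39 and -4.96 in EV-50 and -3.46 and -1.80 in shGR-19. Only the array labelled shGR-19 replicate 2 thus stood above both EV-50 arrays for Atoh8. Msx1 signals were -0.80 and -0.98 in EV-50 and -0.79 and -0.08 in shGR-19. Those of Hey1 were -4.37 and -4.65 in EV-50 and -4.23 and -3.72 in shGR-19. The other 9 kept responsive genes were not called, with differences from -0.64 for Fn1 to 0.62 for Snai1.

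**Figure D4:**
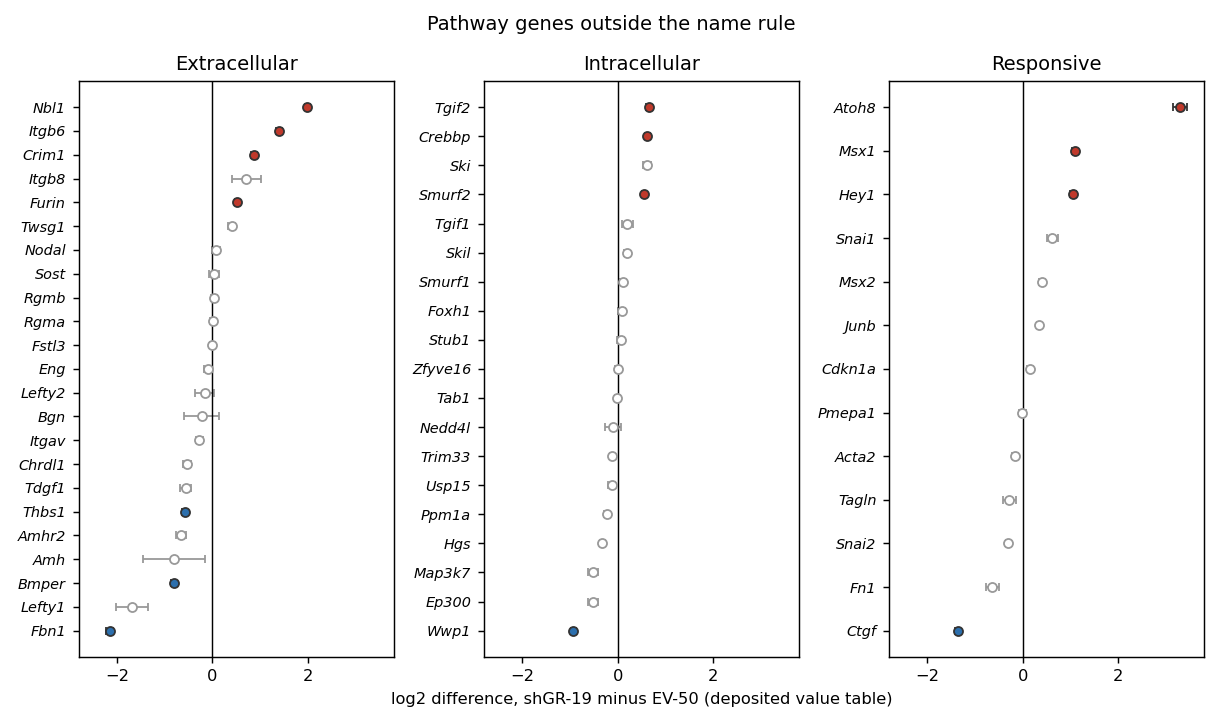
Log2 difference between lines (shGR-19 minus EV-50) in the value table, with 1 SE on each side, for kept pathway genes outside the name rule, in 3 panels by place or kind; red and blue points passed an adjusted p below 0.01. Atoh8 has the largest increase at 3.29 and Fbn1 the largest decrease at -2.15.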

How the data were processed

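The authors deposited, for each of 4 arrays, Agilent Feature Extraction 10.5.1.1 output holding the background-subtracted intensity of each spot, not scaled between arrays, and GeneSpring log2 values in 1 table, made with the recommended one-colour steps and set to a median of 0 for each probe. Median log2 values of its columns were 0.08 and 0.04 for EV-50 and -0.06 and -0.06 for shGR-19; direction was read as shGR-19 minus EV-50 by column name. From the scanner intensities, outlier spots (74 to 139 per array) were left out, spots of a probe were averaged and log2 of the ratio to the array's 75th percentile was computed. Of 41172 probes found in both sources, 24441 were kept as well above background (at least 50% of the spots of a probe) on both arrays of at least 1 line. The tests were run with limma 3.58.1 under R 4.3.3 (lmFit, eBayes, Benjamini-Hochberg adjustment over kept probes), in the scanner files as the main setting and in the value table with the same probes. An exact permutation of 2 against 2 arrays cannot go below 0.333 and was not used. All arrays lay on 1 slide with 1 scan, so no batch term was fitted. The number of arrays limits the precision. No scanner fold is given against a line below background on both arrays.

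The members, lists and tests were chosen with earlier results of these data known. Given array by array were all members that passed an adjusted p of 0.01 in either source or differed by more than 2-fold in the table, a fixed set of core receptors, SMADs and Id genes, and Nr3c1; Fst, Bmp3 and Inhba were added after their values were seen. Of 102 member probes, 88 matched a RefSeq accession, all 88 with the same symbol. The values of 2 genes are not reported here. The alternatives were normexp with an offset of 50, quantile normalization, another percentile, all probes or only those detected on all arrays, leaving out each array, blocking on the replicate number, a plain equal-variance test, an intensity trend with robust prior (statmod 1.5.0), other thresholds and the mean of probes. On simulated data with the spread of the value table, 62 of 100 probes changed by 2 and 89 of 100 changed by 4 on the log2 scale were recovered, with 2 false calls among 24441 probes, and with the spread of the scanner files 0 and 0.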

Additional observations from a re-analysis of the deposited data

How the results depend on the processing

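Called in the value table were 11 members higher and 6 lower. With all rows of the table kept, with the replicate number as a block, or with 1 column left out, the counts were 0 higher and 0 lower. With all rows and with the block, 30 members each had an unadjusted p below 0.05, beside 32 in the main fit. The share over all genes was not computed. With the block the adjusted p of the 17 lay between 0.0294 and 0.0368. A column left out leaves 1 array in a line, so no p-value is given there. The labels do not say that a number pairs arrays; same-numbered deviations correlated at 0.65 in the scanner files and 0.11 in the table. The plain equal-variance test called 1 higher and 0 lower after adjustment, and 7 and 2 without adjustment at more than 2-fold. An intensity trend with a robust prior gave 17 higher, an adjusted p below 0.05 gave 18 higher, and more than 2-fold gave 7 and 3. In the scanner files the counts were 0 and 0 under every alternative, against 11 and 6 with the value table as the source. The median difference of the members in the table was 0.32, 0.26 with the mean of probes, 0.37 after quantile normalization and 0.26 to 0.32 with a column left out; in the scanner files it was 0.18, and 0.02 to 0.26 with an array left out. None of the 17 called members changed sign in the table under any alternative. Signs turned for uncalled ones: Smad1 (0.0324 with the mean of probes, 0.0900 after quantile normalization) and Smad5 (-0.000471 with the mean of probes) in the table, and Id4 (-0.00434) with normexp and Bmpr2 (0.0580), Smad5 (0.0554) and Smad9 (-1.07) with the table in place of the scanner files. With 1 array left out, 31 scanner values of named members turned sign and 85 kept it, and 4 values of the table turned. The scanner ranges with an array left out were -0.193 to 0.629 for Acvr1, -1.35 to 0.782 for Bmp4, -0.0889 to 0.324 for Bmpr1a, -0.187 to 0.0651 for Bmpr2, -0.0943 to 1.54 for Gdf15, -0.0624 to 0.413 for Id1, -0.976 to 1.41 for Id4, -0.374 to 1.55 for Inhbb, -0.0507 to 1.47 for Ltbp1, -1.80 to 0.688 for Ltbp2, -0.236 to 0.864 for Ltbp3, -0.351 to 0.162 for Smad1, -0.216 to 0.9996 for Smad3, -0.317 to 0.0233 for Smad4, -0.0881 to 0.0737 for Smad5, -0.0957 to 1.65 for Smad6, -1.24 to 0.0972 for Tgfb1, -0.187 to 1.62 for Tgfb2, -0.621 to 1.22 for Tgfb3, -0.400 to 0.540 for Tgfbr2 and -0.311 to 0.654 for Tgfbr3. In the table they were -0.0103 to 0.126 for Bmpr2, -0.0599 to 0.0184 for Smad1 and -0.149 to 0.253 for Tgfbr3. The cause of these changes was not tested.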
